A study of Mus musculus with 8 samples.

Results

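The miRNAs described here are the mature products of a pair of mouse paralogue clusters. One is the miR-106b cluster (miR-106b-5p, miR-93-5p and miR-25-3p), which lies inside the gene Mcm7, and the other is the X-linked miR-106a cluster (miR-106a-5p, miR-18b-5p, miR-20b-5p and miR-363-3p). Their names on the array are mmu-miR-106b-5p, mmu-miR-93-5p and mmu-miR-25-3p for the first and mmu-miR-18b-5p, mmu-miR-20b-5p and mmu-miR-363-3p for the second. They were chosen by name; the rule uses no measured value, but it was set with earlier results of these data known. Of the 7 listed names, 6 were found among the 1881 mature miRNAs on the array, 4 were detected on all 8 arrays, and these 4 were among the 222 miRNAs tested. The seventh name, miR-106a-5p, has no entry of its own on the array.

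The arrays measured mature miRNAs in excised skin of 16-week-old male mice, with 4 arrays per group and 1 dye, Cy3. All mice carried floxed Ncstn alleles (Ncstn flx/flx) and were Krt14 CreER+/-. Nicastrin, the product of Ncstn, is part of the γ-secretase complex, and Krt14 CreER expresses a tamoxifen-dependent Cre recombinase under a keratin promoter active in basal keratinocytes. The NcstnΔKC mice were given tamoxifen by gavage at 20 mg/kg per day from 8 weeks of age, for 5 days in a row and then once every 10 days. The normal mice had the same alleles and received corn oil, so tamoxifen itself also differs between the groups. The array holds no probe for Ncstn mRNA, so the deletion could not be checked from these values. Nothing in the labels says whether each array came from 1 animal or from a pool, so the p-values reflect the spread between these arrays alone, and some of it may be technical. The labels describe the excised tissue as lesions without separating the groups.

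Members of both clusters are made from shared primary transcripts that carry several hairpins, each cut by Drosha and Dicer into a short duplex of which mostly 1 arm is kept. The kept arm guides Argonaute to mRNAs that pair with its seed, the bases from 2 to 8 counted from the 5′ end. miRNAs with the miR-17 seed are known to repress Cdkn1a, a cell cycle inhibitor, and Bcl2l11, which promotes apoptosis. The miR-106b cluster sits in an intron of Mcm7, which encodes a subunit of the replicative helicase and is induced by E2F transcription factors in dividing cells. Together with the miR-17 to miR-92a cluster on chromosome 14, the clusters form a family that arose by duplication.

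The mature sequences show which members share a seed and how little separates the close relatives. They are from RefSeq (GRCm38.p6), 5′ to 3′, with the seed in capitals, and the last 3 are chromosome 14 relatives shown for comparison.
miR-106b-5p: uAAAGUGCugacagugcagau
miR-93-5p: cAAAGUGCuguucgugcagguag
miR-106a-5p: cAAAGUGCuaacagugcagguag
miR-20b-5p: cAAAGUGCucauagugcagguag
miR-18b-5p: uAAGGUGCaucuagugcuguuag
miR-25-3p: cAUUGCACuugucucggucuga
miR-363-3p: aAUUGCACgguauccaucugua
miR-17-5p: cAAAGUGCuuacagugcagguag
miR-20a-5p: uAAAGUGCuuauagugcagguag
miR-92a-3p: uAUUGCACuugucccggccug

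Each cluster thus holds members of the miR-17 seed group (miR-106b-5p and miR-93-5p on chromosome 5, miR-106a-5p and miR-20b-5p on X) and, among the 7 listed names, 1 member of the miR-25 seed group (miR-25-3p and miR-363-3p). miR-18b-5p has a seed of its own among the 7. Aligned from the 5′ end, miR-93-5p and miR-20b-5p were identical at 20 of 23 positions, and miR-106b-5p and miR-20b-5p at 17 of 21. miR-25-3p and miR-363-3p share the seed but only 9 of 22 positions, whereas miR-25-3p and miR-92a-3p share 18 of 21. miR-106a-5p and its chromosome 14 relative miR-17-5p differ by the single substitution A10U (the miR-106a-5p base, its position from the 5′ end, the miR-17-5p base). miR-20b-5p and miR-20a-5p differ by C1U and C10U, read in the same order.

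All 7 mature sequences lie on the minus strand. The 3 hairpins of the miR-106b cluster occupy 498 bases within the span of Mcm7. miR-106b-5p is at chr5:138165787-138165807, miR-93-5p at chr5:138165574-138165596 and miR-25-3p at chr5:138165332-138165353. The X cluster has 6 hairpins in 875 bases. miR-106a-5p is at chrX:52742541-52742563, miR-18b-5p at chrX:52742381-52742403, miR-20b-5p at chrX:52742159-52742181 and miR-363-3p at chrX:52741697-52741718. Its other hairpins, Mir19b-2 and Mir92-2, give miR-19b-3p and miR-92a-3p, whose sequences are the same as those made from chromosome 14, so the array cannot assign them to a locus.

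The array reads each miRNA with short DNA probes complementary to its 3′ part, and the longest probe of each detected member is given here as deposited. The last line is the longer miR-17-5p probe, which was not detected and is shown because it also pairs with miR-106a-5p.
miR-106b-5p probe: atctgcactgtcagcac
miR-93-5p probe: ctacctgcacgaacag
miR-25-3p probe: tcagaccgagacaagtgc
miR-20b-5p probe: ctacctgcactatgagcact
miR-17-5p probe: ctacctgcactgt

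Counting Watson-Crick pairs only, the miR-20b-5p probe has 1 unpaired base against miR-20a-5p, in capitals in ctacctgcactatGagcact. Against miR-93-5p it has 3. The miR-106b-5p probe has 2 unpaired bases against miR-17-5p and miR-106a-5p, in capitals in aTctgcactgtCagcac. The miR-93-5p probe has 3 against miR-20a-5p and miR-20b-5p (ctacctgcacGaACag), and the miR-25-3p probe has 3 against miR-92a-3p (TcagAccgAgacaagtgc). How much of a close relative each probe captures was not tested, and this bears most on miR-20b-5p and miR-20a-5p.

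All 4 detected members were higher in NcstnΔKC than in normal skin, and for each of them every NcstnΔKC array was above every normal array. miR-20b-5p, the X-linked member, was 2.24-fold higher, and the Mcm7-hosted miR-106b-5p, miR-93-5p and miR-25-3p were 1.63-fold, 1.54-fold and 1.40-fold higher. Of all 222 tested miRNAs, 14.9% were called higher (limma, Benjamini-Hochberg adjusted p of at most 0.05), 27.9% lower and 42.8% either way. Groups that did not overlap were found for 36.9% of them, with 13.5% higher in NcstnΔKC skin. The members' median difference was 0.66 on the log2 scale, beside -0.23 for all tested miRNAs. When only the 174 miRNAs detected on all 8 arrays were fitted, 27 were called higher and 34 lower, with a median difference of -0.17. In whole skin, more cells of a type that makes a miRNA and more of the miRNA per cell cannot be told apart.

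Levels are given as log2 of the summed probe intensity over the array's 75th percentile, so 0 is the level of that percentile, and differences are NcstnΔKC minus normal. Because probes differ in brightness, levels are compared between arrays and not between miRNAs.

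miR-20b-5p, a miR-17 seed member, had levels of -1.69, -1.14, -1.62 and -1.53 on normal arrays 1 to 4, against -0.60, -0.19, -0.24 and -0.30 on NcstnΔKC arrays 1 to 4. The gap between the lowest NcstnΔKC array and the highest normal array was 0.54, the widest among the 4 members, and normal 2 lay nearest to the NcstnΔKC group. The means were -1.50 ± 0.24 and -0.33 ± 0.18 (SD, n = 4 each), a difference of 1.16 ± 0.17 (SE; limma adjusted p = 0.00204), which was rank 16 from the largest rise among the 222. Before scaling, its summed processed intensity was 396, 550, 399 and 455 in normal skin and 765, 811, 897 and 868 in NcstnΔKC skin, so the groups also stood apart in the unscaled values.

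miR-106b-5p, the first hairpin of the Mcm7 cluster and also a miR-17 seed member, had levels of -1.20, -0.87, -1.06 and -0.95 on normal arrays 1 to 4, against -0.55, -0.27, -0.20 and -0.23 on NcstnΔKC arrays 1 to 4. NcstnΔKC 1 was the lowest of its group and still lay 0.32 above the highest normal array. The means were -1.02 ± 0.15 and -0.31 ± 0.16 (SD, n = 4 each), and the difference was 0.71 ± 0.14 (SE; limma adjusted p = 0.00573, rank 28). Unscaled intensities ran from 553 to 682 in normal and from 763 to 921 in NcstnΔKC skin.

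miR-93-5p, which shares that seed, had levels of -1.34, -1.07, -1.24 and -1.07 on normal arrays 1 to 4, against -0.84, -0.39, -0.48 and -0.52 on NcstnΔKC arrays 1 to 4. Again NcstnΔKC 1 was lowest in its group, 0.23 above the nearest normal array. Its means were -1.18 ± 0.13 and -0.56 ± 0.19 (SD, n = 4 each), a difference of 0.62 ± 0.15 (SE; limma adjusted p = 0.0120, rank 35). The unscaled ranges, 505 to 625 in normal and 649 to 761 in NcstnΔKC skin, did not overlap either.

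miR-25-3p, the Mcm7 cluster's member of the other seed group, rose least of the 4 in the fitted difference. Its levels were -0.86, -0.72, -0.79 and -0.82 on normal arrays 1 to 4, against -0.51, -0.17, -0.26 and -0.31 on NcstnΔKC arrays 1 to 4, with 0.22 between the groups. The normal arrays were close together, with a mean of -0.80 ± 0.06, beside -0.31 ± 0.14 in NcstnΔKC skin (SD, n = 4 each). The difference was 0.49 ± 0.13 (SE; limma adjusted p = 0.0176, rank 49), and unscaled intensities were 700 to 746 against 817 to 885.

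**Figure D1:**
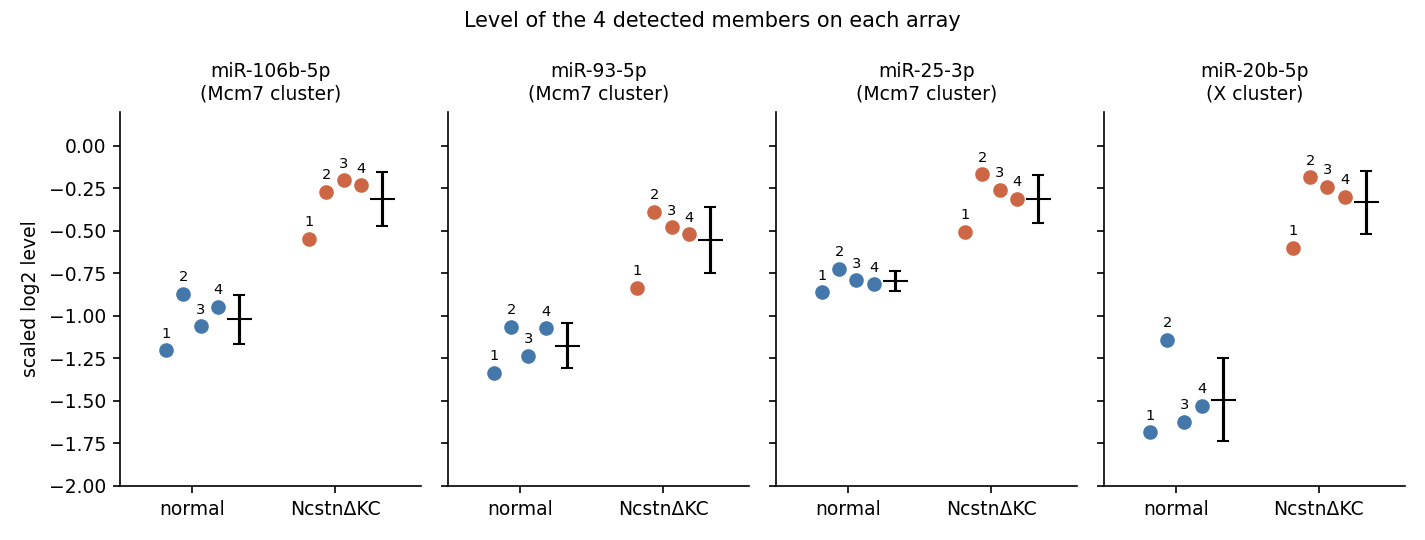
Scaled log2 level of each detected member (vertical axis, log2 of summed intensity over the array's 75th percentile) on the 4 normal (blue) and 4 NcstnΔKC (orange) arrays, numbered by replicate, with the group mean and SD as black bars. In each panel all NcstnΔKC arrays lie above all normal arrays, with a gap from 0.22 (miR-25-3p) to 0.54 (miR-20b-5p), and heights are not comparable between panels.

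NcstnΔKC 1 was the lowest array of its group for all 4 members, and normal 1 the lowest of its own. All 937 spots used for these members were well above background, and each of their 8 probes taken alone also had groups that did not overlap. Among all tested miRNAs 36.9% had such groups, and the share over all probes was not computed. The probes of a miRNA overlap in sequence and add up to its level, so they are not separate evidence. The differences of the longer and the shorter probe were 0.68 and 0.76 for miR-106b-5p and 0.59 and 0.78 for miR-93-5p. They were 0.48 and 0.53 for miR-25-3p and 1.15 and 1.19 for miR-20b-5p. For all 4 the shorter probe, which was the dimmer, gave the larger difference, most of all for miR-93-5p.

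**Figure D2:**
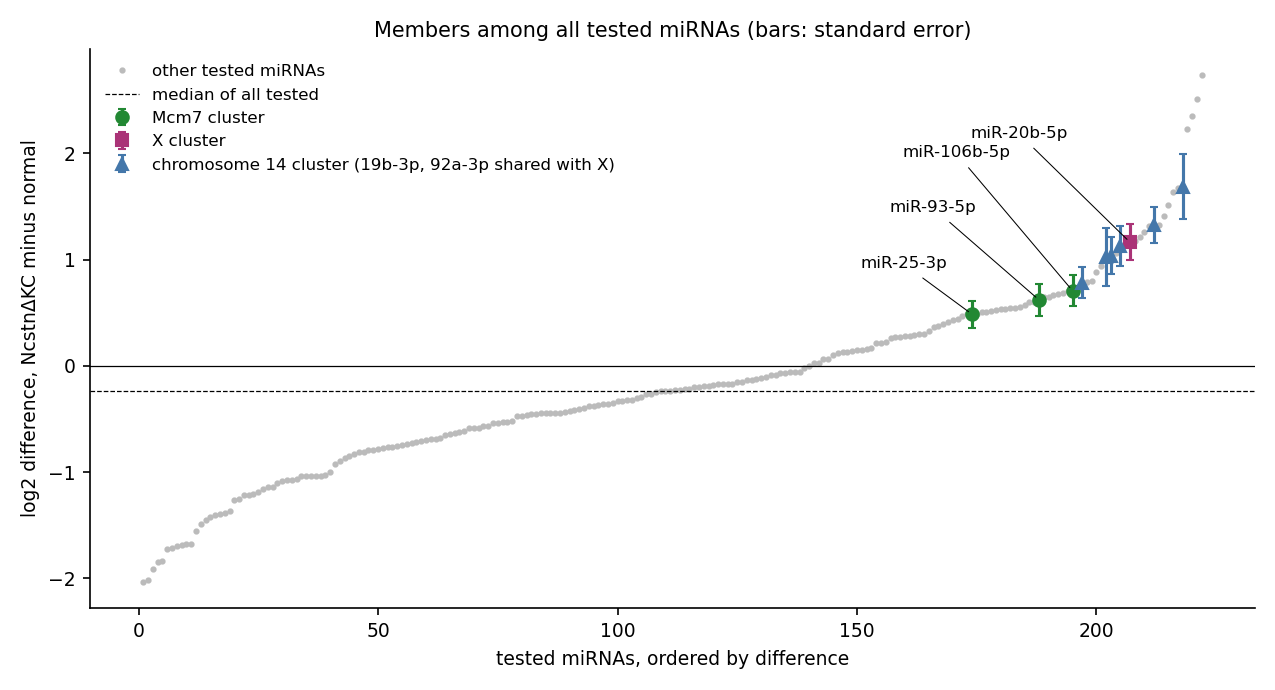
Log2 difference, NcstnΔKC minus normal, of each of the 222 tested miRNAs (grey points) in ascending order, with the Mcm7 cluster (green circles), miR-20b-5p of the X cluster (purple square) and the chromosome 14 cluster (blue triangles; 3 of these were not detected on all normal arrays) marked and bars for the standard error. The 4 members lie between 0.49 and 1.16, above the median of all tested miRNAs at -0.23 (dashed line).

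The sizes of these differences depend on how the arrays are set on 1 scale. With the scaling used here, 33 of the 222 tested miRNAs were called higher, 62 lower and 127 neither. Setting each array on the 75th percentile of all probes gave 12 higher and 0 lower, quantile normalization 39 and 33, no scaling 24 and 101, and spike-in scaling 18 and 91. Over 8 ways of processing, the differences of the members were above 0 in all, from 0.40 to 1.58 for miR-106b-5p, 0.31 to 1.49 for miR-93-5p, 0.18 to 1.36 for miR-25-3p and 0.86 to 2.03 for miR-20b-5p. All upper ends came from the percentile over all probes, where the SE was 0.69 for each member, beside 0.13 to 0.17 with the scaling used here. Taken relative to the median of all tested miRNAs under the same processing, the ranges were narrower: 0.66 to 1.11, 0.58 to 1.12, 0.49 to 0.83 and 0.99 to 1.63 in the same order. For 4 of the 8 (the scaling used here, the percentile over all probes, none and spike-in) these relative values are equal by construction, since a factor per array moves all miRNAs alike. With spike-in scaling only miR-20b-5p stayed past the threshold (difference 0.86, adjusted p = 0.00589), and with the percentile over all probes none of the 4 did (limma adjusted p from 0.0529 for miR-20b-5p to 0.237 for miR-25-3p). With no filter on dim miRNAs, miR-106b-5p, miR-93-5p and miR-25-3p were outside it (adjusted p = 0.0518, 0.0867 and 0.0521), and miR-25-3p also with no scaling (0.136), with the scanner software's totals (0.0605) and without NcstnΔKC 3 (0.0655, limma throughout). miR-20b-5p had the highest difference and miR-25-3p the lowest under all 8, an order that those 4 share by construction.

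**Figure D3:**
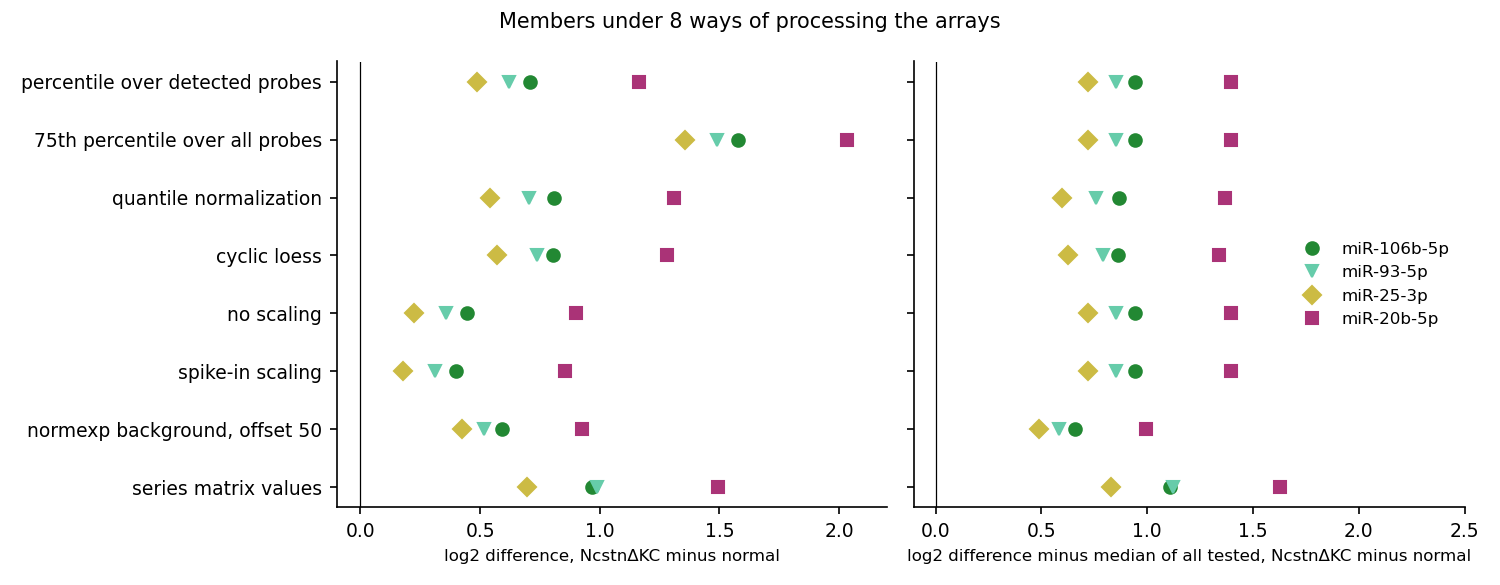
Log2 difference of each detected member (left) and the same minus the median of all tested miRNAs (right), NcstnΔKC minus normal, under 8 ways of processing the arrays (vertical axis). The left-hand values shift together between scalings, from 0.18 to 2.03 over all members, and miR-20b-5p (purple square) is rightmost and miR-25-3p (yellow diamond) leftmost under all 8 in both panels.

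The 2 clusters were compared by log2 ratios of their members within each array, in which any scaling factor cancels. Of 17 listed pairs, the 7 whose miRNAs were both tested were computed, and differences between groups were tested by exact two-sided permutation over 70 labelings, where the smallest p is 0.0286, with Benjamini-Hochberg adjustment over the 7. miR-20b-5p rose more than both Mcm7-hosted members with its seed, at the limit of what the design can show. With 1 array left out, no pair passed, except that 4 did without normal 4.

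The ratio of miR-20b-5p to miR-106b-5p was -0.48, -0.27, -0.56 and -0.58 on normal arrays 1 to 4, against -0.05, 0.09, -0.04 and -0.07 on NcstnΔKC arrays 1 to 4. The groups did not overlap and differed by 0.46 (95% interval 0.21 to 0.67, exact permutation p = 0.0286, adjusted p = 0.05). The ratio of miR-20b-5p to miR-93-5p was -0.35, -0.08, -0.39 and -0.46 on normal arrays 1 to 4, against 0.24, 0.21, 0.24 and 0.22 on NcstnΔKC arrays 1 to 4. This difference was 0.54 (95% interval 0.28 to 0.69, exact permutation p = 0.0286, adjusted p = 0.05), with little spread among the NcstnΔKC arrays (SD 0.016) and normal 2 apart from the other normal arrays.

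Within the Mcm7 cluster, miR-106b-5p rose more than miR-25-3p, and the other pairs did not pass the test. miR-106b-5p over miR-93-5p was 0.13, 0.19, 0.17 and 0.13 in normal skin and 0.29, 0.12, 0.28 and 0.29 in NcstnΔKC skin. The groups overlapped through NcstnΔKC 2, and the difference of 0.087 had a 95% interval from -0.073 to 0.16 (exact permutation p = 0.143, adjusted p = 0.167). miR-106b-5p rose more than miR-25-3p by 0.22 (95% interval 0.031 to 0.42, exact permutation p = 0.0286, adjusted p = 0.05), with ratios of -0.34 to -0.13 in normal and -0.10 to 0.08 in NcstnΔKC skin. For miR-93-5p over miR-25-3p the difference was 0.13, with a 95% interval from -0.070 to 0.26 that includes 0 (exact permutation p = 0.0571, adjusted p = 0.08). In the authors' deposited series matrix values these calls were exchanged: the exact permutation test gave 0.27 for miR-106b-5p over miR-25-3p (adjusted p = 0.0667) and 0.29 for miR-93-5p over miR-25-3p (adjusted p = 0.05).

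**Figure D4:**
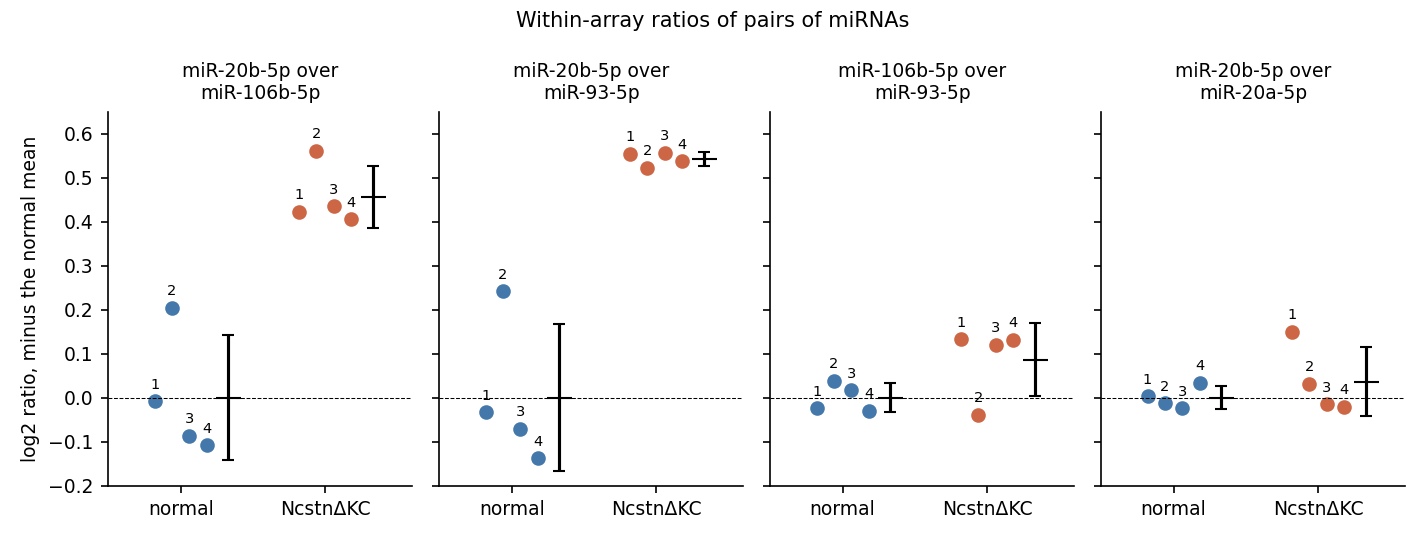
Log2 ratio of the first to the second miRNA within each array, minus the normal mean of that ratio (vertical axis), for 4 pairs on normal (blue) and NcstnΔKC (orange) arrays numbered by replicate, with mean and SD as black bars. miR-20b-5p over miR-106b-5p and over miR-93-5p separate the groups (differences 0.46 and 0.54), while miR-106b-5p over miR-93-5p and miR-20b-5p over miR-20a-5p overlap (0.087 and 0.036).

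Averaged over its 3 members, the Mcm7 cluster was at -1.14 to -0.89 on the normal and -0.63 to -0.28 on the NcstnΔKC arrays, a difference of 0.60 between the group means. miR-20b-5p minus that mean was -0.50 ± 0.16 and 0.06 ± 0.03 (SD, n = 4 each), so the gap between the clusters' detected products changed by 0.56. These means describe chosen members and were given no test. Normal 2 was the normal array nearest to the NcstnΔKC group in this quantity, at -0.26 where the other normal arrays lay from -0.59 to -0.55.

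Against the chromosome 14 relatives, the difference in rise between miR-20b-5p and miR-20a-5p did not pass the test, a call that changed with the normalization. Their sequences differ by 2 bases. Their ratio stayed within a range of 0.17 over all 8 arrays and differed by 0.036 between groups (95% interval -0.054 to 0.17, exact permutation p = 0.571, adjusted p = 0.571). With quantile normalization the difference was 0.19 (adjusted p = 0.04, exact permutation) and with cyclic loess 0.13 (adjusted p = 0.05), both past the threshold, while it was 0.22 in the series matrix values (adjusted p = 0.0667) and -0.071 with normexp (adjusted p = 0.171). miR-20a-5p itself was higher by 1.13 ± 0.19 (SE; limma adjusted p = 0.00300), close to the 1.16 of miR-20b-5p, and each probe can pair with the other miRNA but for 1 base. The part of shared capture in these values was not tested. In the miR-25 seed group, miR-92a-3p rose more than miR-25-3p by 0.30 (95% interval 0.061 to 0.56, exact permutation p = 0.0286, adjusted p = 0.05). With cyclic loess this was 0.23 and no longer passed (exact permutation, adjusted p = 0.0667).

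Of the 12 chromosome 14 cluster arms on the array, 3 were detected on all 8 arrays: miR-20a-5p, miR-19b-3p and miR-92a-3p. A further 3 (miR-17-3p, miR-18a-5p and miR-19a-3p) were detected on all 4 NcstnΔKC arrays and on 0, 1 and 2 normal arrays, so they were tested only through the group in which they are high, and no count is drawn from them. miR-19b-3p and miR-92a-3p may also come from the X cluster, and they were higher by 1.03 ± 0.17 and 0.78 ± 0.15 (SE; limma adjusted p = 0.00307 and 0.00456).

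The remaining members of the X cluster were not detected. miR-18b-5p had 0 of 227 spots well above background over its 4 probes on the 8 arrays, and its background-subtracted summed intensity ran from -33.0 to -13.8. miR-363-3p had 0 of 231 spots, with summed intensities from -10.5 to -0.25. In the authors' deposited log2 values both lay in a narrow band, from 3.22 to 3.29 for miR-18b-5p and from 3.26 to 3.32 for miR-363-3p, near the array medians of 3.24 to 3.25. With both groups below background, no fold can be given for either, and a difference between groups was not detectable at this signal.

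miR-106a-5p could not be told apart from miR-17-5p. The array's 2 probes listed as miR-17-5p (ctacctgcactgt and ctacctgcactg) pair with every base of miR-106a-5p in their stretch, their annotation names both miRNAs, and they are mapped to chromosomes 14 and X. They are the shortest probes printed here, at 13 and 12 bases, and 1 of their 228 spots was well above background, so neither miRNA counted as detected on any array. Their summed intensity was -10.0, 3.4, -10.1 and 3.4 on normal arrays 1 to 4, against 8.2, 23.1, 22.4 and 30.3 on NcstnΔKC arrays 1 to 4. These values did not overlap but are below the detection limit, and no level or fold was taken from them.

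The other arms of the same hairpins were below background too. None of the 9 opposite arms and X cluster partner arms (miR-106b-3p, miR-93-3p, miR-25-5p, miR-106a-3p, miR-18b-3p, miR-20b-3p, miR-363-5p, miR-19b-2-5p and miR-92a-2-5p) was detected on any of the 8 arrays, with 0 of 2027 spots well above background. For miR-106b, miR-93, miR-25 and miR-20b the array thus gave a signal for 1 arm of the hairpin only, and the change in the other arm could not be measured.

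Of the miRNAs outside these clusters and the marker lists (189 candidates), those with the most similar pattern over the 8 arrays were the same 3 for all Mcm7-hosted members. Likeness was measured as the root mean square distance between log2 levels, each miRNA centred on its own mean. miR-99b-5p was at 0.140 from miR-106b-5p, 0.103 from miR-93-5p and 0.101 from miR-25-3p, miR-125a-5p at 0.175, 0.126 and 0.0939, and miR-6366 at 0.139, 0.144 and 0.145. For miR-20b-5p the nearest were miR-677-3p at 0.210, miR-362-3p at 0.213 and miR-532-5p at 0.238. miR-677-3p was detected on 1 normal array and its normal mean is the floor of -4.97, so its distance depends on that floor (its difference of 1.33 was 0.33 with the floor 2 times as high). Some relatives were closer still, with 0.0699 between miR-106b-5p and miR-93-5p, 0.0539 between miR-20b-5p and miR-20a-5p and 0.0982 between miR-20b-5p and miR-19b-3p. This did not hold for miR-25-3p, which was at 0.0973 from miR-93-5p and 0.137 from miR-106b-5p. Both were farther from it than miR-125a-5p (0.0939). miR-20b-5p was farther from miR-106b-5p (0.248), miR-93-5p (0.290) and miR-25-3p (0.360).

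The promoter of Mcm7 is shown because the gene hosts 3 of the members. Mcm7 mRNA was not measured, and whether transcription from this promoter differed between the groups was not tested. RefSeq (GRCm38.p6) gives a window from 250 bases before to 50 after a start of Mcm7, chr5:138171834-138172133 on the minus strand, with a match to TTTCGCGC, a form of the E2F motif, in capitals.
Mcm7 promoter: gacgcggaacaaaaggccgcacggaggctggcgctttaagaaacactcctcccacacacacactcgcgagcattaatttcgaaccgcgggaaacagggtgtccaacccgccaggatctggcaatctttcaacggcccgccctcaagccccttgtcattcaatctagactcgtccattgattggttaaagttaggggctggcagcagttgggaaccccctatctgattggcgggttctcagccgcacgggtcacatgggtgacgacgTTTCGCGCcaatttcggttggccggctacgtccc

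Searched on both strands for TTTCGCGC and TTTGGCGC, 0.813% of all 32851 promoter windows of this length held a match to either. The other Mcm7 window and that of Kis2, whose start lies upstream of the X cluster on the same strand, held 0. A match is a description of letters in the window and not of a bound site.

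Cell-type markers were read beside these results. The 7 epithelial miRNAs were all detected on all 8 arrays, and 0 rose and 4 fell, beside 27.9% called lower among all tested miRNAs. When only the 174 miRNAs detected on all 8 arrays were fitted, 34 were called lower. A list's summed level is the log2 of its miRNAs' levels added before taking the log, so the brightest probes weigh most. For the epithelial list it was 4.49 to 4.78 in normal and 4.51 to 4.92 in NcstnΔKC skin, a range that does not show the 4 falls. Of the 6 white blood cell markers, 5 were tested, 2 rose (miR-142a-3p by 1.52 and miR-155-5p by 1.26), 0 fell and 3 did not pass, beside 14.9% called higher among all tested miRNAs. miR-155-5p and miR-150-5p were detected on 3 normal and all 4 NcstnΔKC arrays, so they were tested only through the group in which they are high. Among the white blood cell markers detected on all 8 arrays, only miR-142a-3p passed. The list's summed level was 0.93 to 1.41 in normal and 1.52 to 3.12 in NcstnΔKC skin. Fibroblast and smooth muscle markers went both ways: 2 of 4 rose and 1 fell, beside 14.9% higher and 27.9% lower among all tested miRNAs. miR-199a-3p (0.69) and miR-214-3p (1.21) rose, miR-145a-5p (-1.14) fell, and miR-143-3p (-0.52) did not pass. miR-145a-5p was detected on 4 normal arrays and 1 NcstnΔKC array, and its NcstnΔKC mean of -4.53 was near the floor of -4.97. The fall counted in this list thus rests on a miRNA tested only through the group in which it is high. The list's summed levels, 2.25 to 2.68 in normal and 2.89 to 3.50 in NcstnΔKC skin, rest mostly on miR-199a-3p, whose mean levels were 2.24 and 2.92. Striated muscle markers had 0 of 4 that rose and 1 that fell (4.13 to 6.39 against 2.68 to 5.26), and red blood cell markers 0 and 1 of the 2 tested of 3 (-0.54 to 0.88 against 0.08 to 1.5), with miR-144-3p detected on no array. The red blood cell marker that fell, miR-486a-5p, was detected on 4 normal arrays and 1 NcstnΔKC array. Its NcstnΔKC mean was -4.52, near the floor, and it too was tested only through the group in which it is high. The 1 endothelial marker tested of 2 passed in neither direction (summed levels 1.25 to 1.62 against 1.46 to 1.75). The part of these cells in the members' differences was not tested.

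All arrays were on 1 slide, with the normal arrays in row 2 and the NcstnΔKC arrays in row 1, so position and group cannot be told apart. The normal arrays detected a mean of 252 miRNAs and the NcstnΔKC arrays 217 (range over all 198 to 273, difference -34.5, exact two-sided permutation p = 0.0571, n = 4 each). The 75th percentile intensity used for scaling was 1259 ± 44.6 in normal and 1053 ± 98.3 in NcstnΔKC skin (SD, n = 4 each). The groups did not overlap in it, at 1215 to 1314 against 922 to 1160 (exact two-sided permutation p = 0.0286, the smallest possible). Without this scaling the differences of miR-106b-5p, miR-93-5p, miR-25-3p and miR-20b-5p were 0.45, 0.36, 0.22 and 0.90. With it they were 0.71, 0.62, 0.49 and 1.16. Beyond this, the part of these array measures in the members' differences was not tested.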

How the data were processed

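Cy3-labelled RNA from 8 skin samples was hybridised to 1-colour Agilent miRNA arrays. Per the file headers, the deposited intensity values were made with Agilent Feature Extraction 10.7.1.1, which subtracts the background and does not normalize between arrays; positions there refer to mm9 and were not used. The authors' deposited series matrix holds log2 values, with a normalization not given in the sources used here.

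Control and outlier spots were left out. Spots were averaged per probe, scaled by each array's 75th percentile across the 301 probes detected on all 8 arrays (at least 50% of spots well above background), summed per miRNA, floored at 0.0318 and log2-transformed. The 222 miRNAs detected on all 4 arrays of a group were fitted on group with limma 3.58.1 (R 4.3.3; lmFit, eBayes) and Benjamini-Hochberg adjustment, threshold 0.05, tested on simulated data. Intervals of pair ratios invert the permutation test. Replicate numbers did not pair samples (see the closing section), and 25 alternatives were tried. Named miRNAs were the members, their opposite arms, chromosome 14 relatives, markers and, for each tested member, the 3 nearest others in pattern. Members and lists were chosen with earlier results of these data known.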

Additional observations from a re-analysis of the deposited data

Results flagged for a closer look

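Among 34 sets of 4 values checked (levels and pair ratios of the members and their relatives in 1 group), 4 held a sample far from the other 3, and chance gives about 1 in 20. miR-18a-5p was at -3.75 in normal 2, where the other normal arrays were at the floor of -4.97. miR-20a-5p was at 0.45 in NcstnΔKC 1, below 0.92 to 0.98 in the others. The log2 ratio of miR-106b-5p to miR-93-5p was 0.12 in NcstnΔKC 2, below 0.28 to 0.29 in the others. The log2 ratio of miR-93-5p to miR-25-3p was -0.33 in NcstnΔKC 1, below -0.22 to -0.21 in the others.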

How the results depend on the processing

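Of the 4 detected members, 4 were called higher and 0 lower with the scaling described; 0 passed with the 75th percentile over all probes, 1 with spike-in scaling, 1 with no filter on dim miRNAs, 3 with no scaling, 3 with the scanner software's totals and 3 to 4 when 1 array was left out. The array whose removal lost a call was NcstnΔKC 3 (miR-25-3p, difference 0.44, limma adjusted p = 0.0655). Differences of all 4 stayed above 0 under all 25 alternatives. The Mcm7 cluster mean difference of 0.60 became 1.47 with the percentile over all probes, 0.34 with no scaling, 0.30 with spike-in scaling and 0.88 in the series matrix values, and was 0.56 to 0.68 with 1 array left out. The difference of miR-20b-5p minus that mean was 0.41 with normexp, and 0.53 to 0.64 with 1 array left out. Of the 7 pairs, 4 were at adjusted p = 0.05, and 0 to 4 with 1 array left out: 4 without normal 4 and 0 otherwise, the exact p of those 4 pairs then being 0.0286 or 0.0571.

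Directions that turned were the pair miR-20b-5p over miR-20a-5p (-0.071 with normexp, and -0.0016 to 0.055 with 1 array left out, the lowest without NcstnΔKC 1), miR-106b-5p over miR-93-5p (-0.018 in the series matrix values), and, with the software's totals, miR-17-3p (-0.017), miR-677-3p (-0.46) and miR-532-5p (-2.04). Pair calls also changed with the normalization: miR-20b-5p over miR-20a-5p passed with quantile normalization (0.19) and cyclic loess (0.13), miR-92a-3p over miR-25-3p was lost with cyclic loess (0.23), and the series matrix values lost miR-106b-5p over miR-25-3p (0.27) and gained miR-93-5p over miR-25-3p (0.29). The cause was not tested.

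Same-numbered arrays correlated at -0.44, 0.20, -0.26 and -0.23 in their deviations from the group means, so the numbers were not taken as pairs. With the replicate number, which is also the slide column, as a block, all 4 members were called higher, and 0 pairs passed, the smallest p then being 0.125. Probes below background limit miR-106a-5p, miR-18b-5p and miR-363-3p.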
